A study of Mus musculus with 6 samples.

Results

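Solute carrier (SLC) genes encode membrane proteins that move small molecules and ions across the plasma membrane and the membranes of organelles. The genes described here are the 190 symbols of the form Slc, a family number and a letter whose level, averaged over all 6 libraries, reached 1 FPKM or more, of 369 such symbols in the tables and 23308 symbols in all. FPKM is the amount of mapped fragments scaled to transcript length and to the library's total, so levels of different genes can be compared within a library. The level itself chose the members, and the stage and genotype differences did not enter the choice directly. Just inside the threshold lay Slc34a1, Slc43a2 and Slc26a5, with means of 1.06, 1.07 and 1.09 FPKM, and just outside it Slc22a3, Slc37a4 and Slc1a4, with 0.998, 0.919 and 0.916 FPKM. Of the other 179 symbols, 41 were listed at 0 in every library.

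The donor females were 21 to 23 days old, of ICR background and given gonadotropins (PMSG and hCG), and each library pooled 60 cells or embryos. YAP-null samples (genotype YAP-/-) came from YAP-/- mothers and wild-type (WT) samples from WT mothers. There was 1 YAP-null and 1 WT library of 4-cell embryos, from mated females, and there were 2 YAP-null and 2 WT libraries of oocytes at the GV (germinal vesicle) stage, before meiosis resumes. Yap1 encodes YAP, a transcriptional coactivator that the Hippo kinases restrain, and the title of the series names YAP of the oocyte as an activator of the early embryonic genome. The fathers' genotype and the way the deletion was made are not stated in the labels, and the source field of the 4-cell samples reads GV oocyte against their titles and stage fields, which were used. No label says whether oocytes of a library were pooled from several females, so p-values measure the spread between these libraries.

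As background, a growing oocyte takes up much of its supply through gap junctions with the cumulus cells around it, and it uses pyruvate rather than glucose. The cleaving embryo has lost those cells and depends on its own carriers for amino acids, sugars, vitamins, metals and ions. Mouse oocytes and early embryos also use glycine, taken up by the carrier GLYT1 (Slc6a9), to control cell volume. SLC proteins are grouped in numbered families by sequence, and the SLC25 family sits mostly in the inner mitochondrial membrane.

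Yap1 reached 33.3 FPKM in YAP-null and 89.7 FPKM in WT embryos, against 10.8 and 10.04 FPKM in YAP-null and 248 and 153.5 FPKM in WT oocytes, so the YAP-null embryos held more Yap1 transcript than the YAP-null oocytes. All 12 listed oocyte genes were above 0 in every library, and their summed level was 1307 FPKM in YAP-null and 175 FPKM in WT embryos, against 9171 to 12992 FPKM in the GV libraries. Granulosa and cumulus genes summed to 94.0 and 181.9 FPKM in the YAP-null and WT 4-cell libraries, of which Nr5a2, also an embryonic gene, gave 92.1 and 178.9 FPKM, against 40.5 to 50.8 FPKM in the GV libraries. In the GV libraries Inha was at 6.12 to 15.6 FPKM, Cyp19a1 at 9.51 to 13.6 FPKM and Amh at 3.05 to 4.46 FPKM, while Fshr was at 1.34 FPKM or less and Ptx3 was listed at 0. Blood genes summed to 25.9 FPKM in YAP-null and 93.7 FPKM in WT embryos, against 0.185 to 4.06 FPKM in the GV libraries, and stroma genes to 0.363 and 4.26 FPKM against 0.0512 to 0.673 FPKM. Their part in the results below was not tested. The members held 1.01% and 1.00% of all FPKM in the YAP-null and WT 4-cell libraries, against 0.721% and 1.08% in YAP-null and 0.989% and 1.04% in WT oocytes. The lowest share was that of YAP-null GV library 1, where the small RNA gene Mir762 took 19.1% of the sum.

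The first comparison asked which carriers change between the oocyte and the 4-cell embryo. Carriers moved in both directions in about equal numbers: 62 members rose and 61 fell at the 4-cell stage (limma on log2(FPKM + 1) over both genotypes, 2 libraries against 4, Benjamini-Hochberg adjusted p under 0.05), and 67 did not pass. That is 32.6% and 32.1% of the members, beside 28.2% higher and 27.8% lower among all 11451 genes tested (56% called in all). The median difference was -0.14 on the log2 scale over the members and -0.10 over all genes. Since 36 members had a mean under 1 FPKM in oocytes and 26 a mean under 1 FPKM in embryos, and entered only through the other stage, these counts describe the list and are no sign that it differs from other genes. Among the 128 members averaging at least 1 FPKM at both stages, 29 rose (22.7%) and 40 fell (31.2%), beside 23.5% and 24.6% of all such genes. All 123 called members had no overlap between the 2 embryo and the 4 oocyte libraries and the same direction in both genotypes. A call at this threshold with 2 libraries against 4 favours both, and the share among all called genes was not counted. Oocyte libraries of the same number deviated together (r = 0.85 over 10462 genes). The stage fit took all 4 as independent, so its SE and p-values may be too small. Only 2 genes, Slc45a3 and Slc25a5, were among the 10 highest members at both stages. Without the YAP-null 4-cell library 47 members rose and 49 fell, and without the WT 4-cell library 39 rose and 32 fell, taking the single embryo library left to scatter as the oocyte libraries do. FPKM are relative to each library's total, so the amount of RNA per embryo, and fewer cells against less RNA per cell, cannot be told apart.

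**Figure D1:**
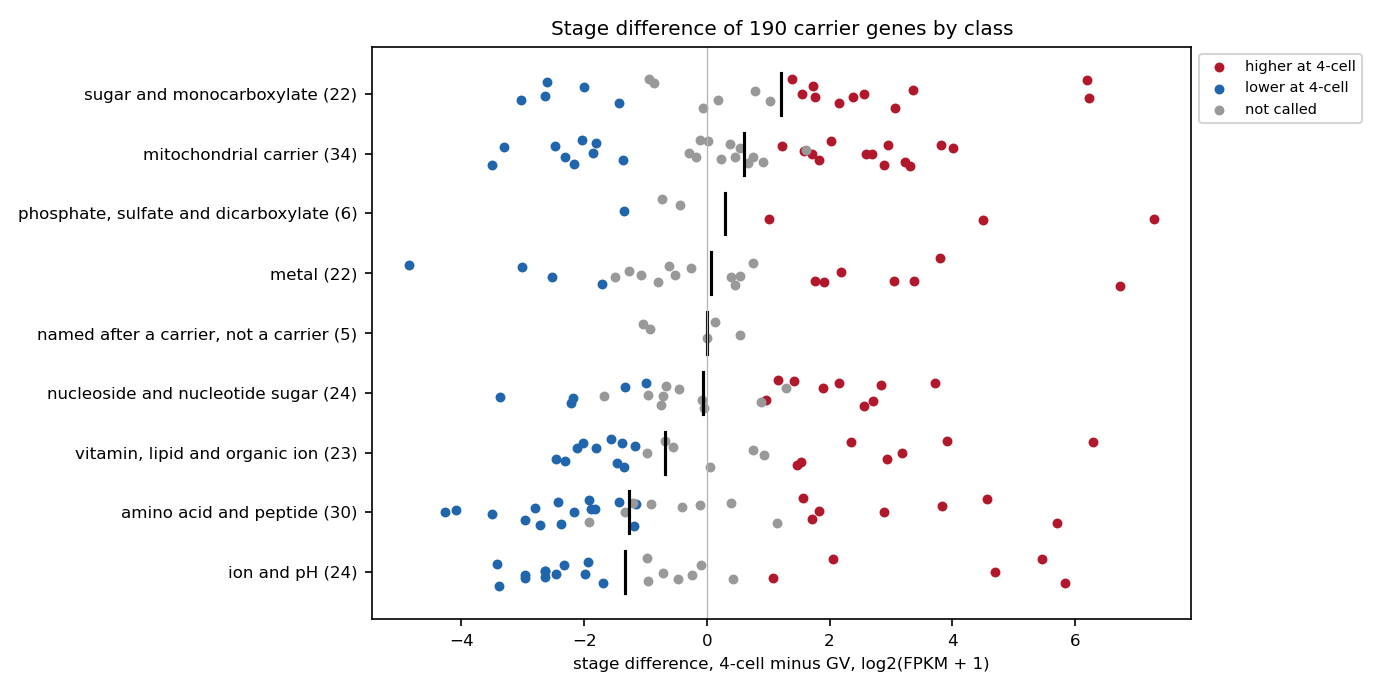
Stage difference of the 190 members by carrier class, 4-cell minus GV on the log2(FPKM + 1) scale (x axis); each point is a gene, coloured by its call, and the bar is the class median. The sugar and mitochondrial classes have medians of 1.21 and 0.60, and the amino acid and ion classes medians of -1.27 and -1.34, with members on both sides of 0 in every class. Over the members at 1 FPKM or more at both stages the sugar median was 0.18 and the other 3 were 0.50, -1.03 and -1.70.

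In 27 members every oocyte library was under 1 FPKM, and all 27 rose, a direction that the threshold on the mean favours. The largest stage difference was that of Slc34a2 (chromosome 5, 53440592 to 53462902 in mm9), the sodium-phosphate cotransporter NaPi-IIb, at 222 (YAP-null) and 184 FPKM (WT) in embryos, against 0.408 and 0.256 (YAP-null) and 0.128 and 0.411 FPKM (WT) in oocytes. Its log2 difference was 7.29 ± 0.31 (SE), with an adjusted p = 0.000121. Slc19a3 (chromosome 1, 83009098 to 83035023), a thiamine (vitamin B1) transporter, was at 122 (YAP-null) and 94.1 FPKM (WT) in embryos, against 0.466 and 0.549 (YAP-null) and 0.147 and 0.391 FPKM (WT) in oocytes, a log2 difference of 6.29 ± 0.30 (SE). Slc13a2 (chromosome 11, 78210778 to 78235687), a sodium-coupled carrier of citrate and other dicarboxylates, was at 14.2 FPKM in YAP-null and 32.7 FPKM in WT embryos and was listed at 0 in all 4 oocyte libraries. Here and below a level of 0 means only that the table lists the gene at 0. These 3 had the highest embryo means among those of the 27 taken from the RefSeq promoter table. Slc39a4, Slc6a8, Slc24a6 and Slc4a11, also among the 27, had higher embryo means than Slc13a2 (119, 66.6, 64.7 and 48.6 against 23.4 FPKM). Their promoters are not shown. The 300 bases from 250 before to 50 after each annotated start are shown because these genes had a clear level in embryos and almost no signal in oocytes. They are RefSeq sequences of GRCm38.p6, another build than the files' mm9, and capitals mark the motif matches described after them.
Slc34a2, chr5:53049103-53049402, plus strand: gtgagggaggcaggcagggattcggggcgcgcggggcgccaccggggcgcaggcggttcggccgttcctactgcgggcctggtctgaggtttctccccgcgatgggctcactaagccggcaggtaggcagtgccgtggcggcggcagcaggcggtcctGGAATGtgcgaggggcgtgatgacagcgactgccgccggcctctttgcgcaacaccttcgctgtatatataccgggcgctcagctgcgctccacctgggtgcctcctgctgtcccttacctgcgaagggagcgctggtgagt
Slc19a3, chr1:83038399-83038698, minus strand: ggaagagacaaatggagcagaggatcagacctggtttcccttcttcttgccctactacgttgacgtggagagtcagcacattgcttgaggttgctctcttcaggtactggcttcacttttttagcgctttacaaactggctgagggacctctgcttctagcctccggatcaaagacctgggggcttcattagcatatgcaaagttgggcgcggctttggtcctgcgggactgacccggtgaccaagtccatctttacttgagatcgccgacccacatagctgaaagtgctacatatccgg
Slc13a2, chr11:78422185-78422484, minus strand: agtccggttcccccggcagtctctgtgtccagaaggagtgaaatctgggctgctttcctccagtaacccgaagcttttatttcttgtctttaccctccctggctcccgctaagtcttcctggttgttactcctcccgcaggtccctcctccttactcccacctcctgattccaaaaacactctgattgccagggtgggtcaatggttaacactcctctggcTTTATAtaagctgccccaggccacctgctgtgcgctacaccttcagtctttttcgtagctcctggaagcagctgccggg
Each window was searched on both strands. The first motif was GGAATG, the core bound by TEAD factors, which are the DNA-binding partners of YAP. The second was the GC box, with the letters GGGCGG, and the third the TATA box, with the letters TATAAA. No matches overlapped in the 3 windows. Slc34a2 held a single TEAD core, Slc13a2 a single TATA box on the reverse strand, and Slc19a3 none of the 3 motifs. The table held 148 of the 190 members, each taken with its first listed start. The TEAD core stood in 22 of them (14.9%), beside 14.6% of 27025 genes. Of the members that rose 9 of 42 held it, and of those that fell 6 of 54. The GC box stood in 69.6% of the members and 35.9% of all genes, and the TATA box in 7.43% and 14.2%. The 27025 genes were not chosen by level as the members were, so these shares come from unlike sets. A match is a description of the letters in the window.

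**Figure D2:**
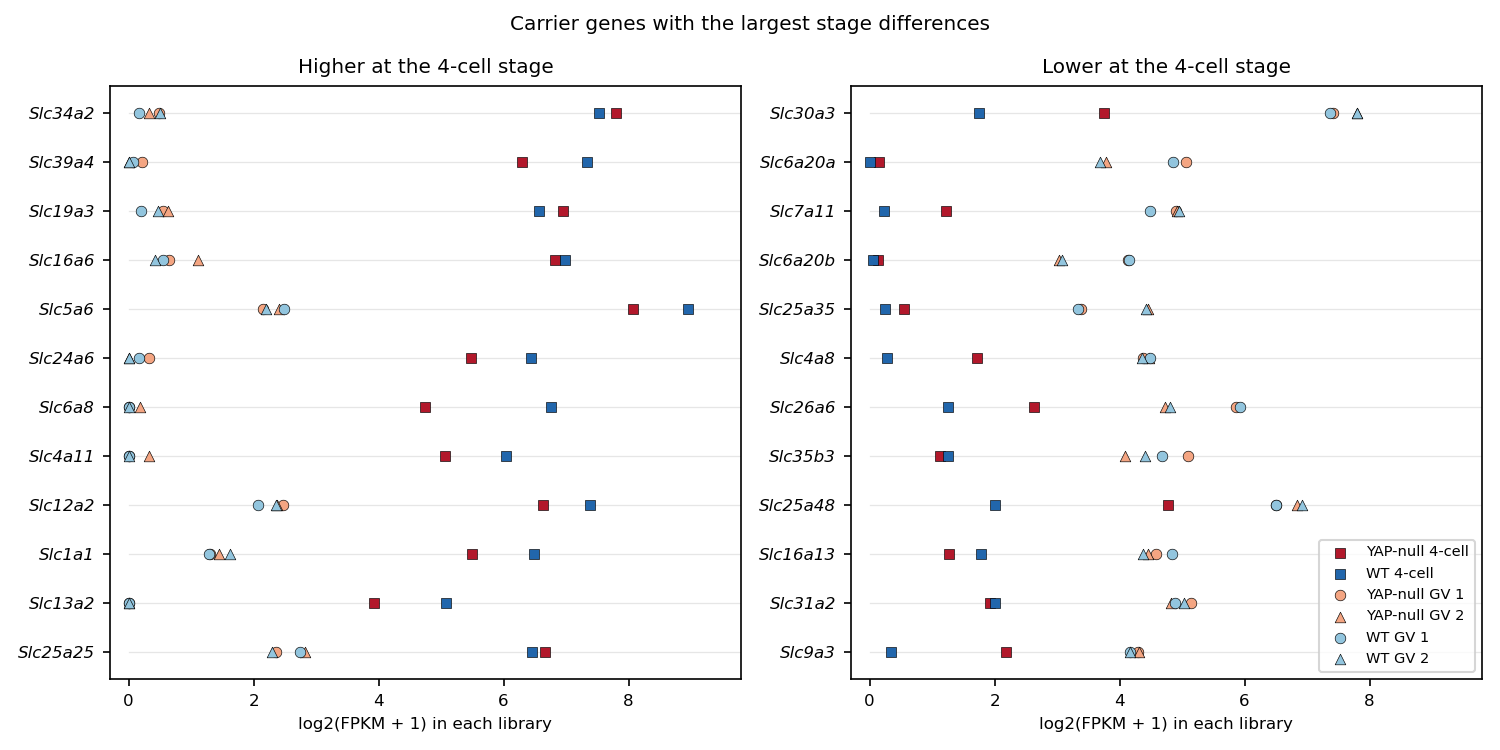
Levels in every library, as log2(FPKM + 1) on the x axis, of the 12 members with the largest rise (left) and the 12 with the largest fall (right) among those called and not overlapping; squares are 4-cell libraries, circles and triangles GV libraries 1 and 2. In Slc25a48 and Slc30a3 the YAP-null embryos lie between the WT embryos and the oocytes, at 26.5 and 12.5 FPKM.

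Classes were set by SLC family number, so a class named after its main substrates can hold carriers of others, such as vitamins, serotonin or creatine. Of 22 carriers in the class of sugars and monocarboxylates 11 rose, 5 fell and 6 were not called. Most of the 11 entered through the embryos: of the 9 averaging at least 1 FPKM at both stages, 2 rose and 2 fell. Here and in the classes below, such counts stand beside 23.5% higher and 24.6% lower among all genes at 1 FPKM or more at both stages. The classes were not tested against other genes. The highest in embryos was Slc5a6 (chromosome 5, 31338409 to 31351297), which belongs to the sodium-glucose family by sequence but carries the vitamins biotin and pantothenate. It was at 269 (YAP-null) and 494 FPKM (WT) in embryos, against 3.43 and 4.29 (YAP-null) and 4.62 and 3.61 FPKM (WT) in oocytes, a log2 difference of 6.20 ± 0.34 (SE). Its locus overlaps that of Atraid, a gene with 26.6 and 46.4 FPKM in YAP-null and WT embryos, against 18.4 and 9.63 FPKM in YAP-null and 33.9 and 10.7 FPKM in WT oocytes. Of the 190 members 21 overlap another listed gene, among those named Slc6a9, Slc13a2, Slc16a6, Slc25a25, Slc25a26, Slc25a35, Slc2a12, Slc30a1, Slc34a1, Slc35a4 and Slc43a2, and where counting ignores strand the reads of such pairs cannot be told apart. Slc16a6, a member of the monocarboxylate transporter family (MCT7), was at 113 (YAP-null) and 125 FPKM (WT) in embryos, against 0.574 and 1.16 (YAP-null) and 0.464 and 0.343 FPKM (WT) in oocytes. Among the 190 members they ranked 1 and 7 by mean level in embryos, and 119 and 164 in oocytes. Slc16a1 (MCT1), a carrier of lactate and pyruvate, rose by 2.15 on the log2 scale and was at 26.2 (YAP-null) and 24.5 FPKM (WT) in embryos, against 5.38 and 4.46 (YAP-null) and 5.70 and 4.31 FPKM (WT) in oocytes. Slc16a3 (MCT4), a lactate exporter, rose by 1.38 and was at 2.97 FPKM or less in every library.

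The glucose transporters moved apart. Slc2a3 (GLUT3), a high-affinity glucose transporter, was at 6.36 (YAP-null) and 15.4 FPKM (WT) in embryos, against 0.173 and 0 (YAP-null) and 0.136 and 0 FPKM (WT) in oocytes, a log2 difference of 3.36 ± 0.34 (SE) with an adjusted p = 0.000568. Slc2a8 (GLUT8), found on internal membranes and studied in the mouse blastocyst, rose by 2.38. Slc2a1 (GLUT1), the widespread basal transporter, did not pass, at 6.72 (YAP-null) and 2.15 FPKM (WT) in embryos, against 13.5 and 3.52 (YAP-null) and 16.8 and 6.04 FPKM (WT) in oocytes (-0.95 ± 0.69 (SE), adjusted p = 0.281). Slc2a12 fell by 2.65, Slc2a10 fell by 2.00 and Slc2a9 fell by 1.42 on the log2 scale, and all 3 were at 0.754 FPKM or less in embryos. The highest oocyte member of all was Slc45a3 (prostein, related to sugar transporters), at 228 (YAP-null) and 46.4 FPKM (WT) in embryos, against 383 and 876 (YAP-null) and 586 and 829 FPKM (WT) in oocytes. It fell by 2.61. Without the WT 4-cell library Slc45a3, Slc2a12, Slc2a10 and Slc2a9 did not pass, nor did Slc2a10 without the YAP-null 4-cell library.

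Carriers of amino acids and peptides fell more often than they rose, 15 against 7 of 30, with 8 not called and a median of -1.27. At 1 FPKM or more at both stages the numbers were 6 against 3 of 16, beside 24.6% lower and 23.5% higher among all such genes. Slc6a9, the glycine carrier GLYT1, was at 25.9 (YAP-null) and 15.4 FPKM (WT) in embryos, against 132 and 165 (YAP-null) and 133 and 156 FPKM (WT) in oocytes, a log2 difference of -2.80 ± 0.34 (SE) with an adjusted p = 0.00107. Both embryo libraries lay below all oocyte libraries, the YAP-null one being the higher of the pair. Slc6a20a, a carrier of proline and betaine, was at 0.113 (YAP-null) and 0 FPKM (WT) in embryos, against 32.5 and 12.8 (YAP-null) and 27.9 and 11.9 FPKM (WT) in oocytes. The neighbouring and closely related Slc6a20b also fell, by 3.50, and reads may be shared between the pair. Slc7a11 (xCT), which imports cystine in exchange for glutamate, was at 1.34 (YAP-null) and 0.174 FPKM (WT) in embryos, against 28.99 and 29.3 (YAP-null) and 21.5 and 29.9 FPKM (WT) in oocytes. The cationic amino acid carriers Slc7a1 and Slc7a2 fell by 2.43 and 2.96, and the serotonin transporter Slc6a4 by 2.72. Slc7a2 and Slc6a20b did not pass without the WT 4-cell library.

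Other carriers of the class rose, among them those of glutamate and creatine, while carriers of neutral amino acids moved both ways. Slc1a1 (EAAT3), which takes up aspartate and glutamate, was at 44.2 (YAP-null) and 88.4 FPKM (WT) in embryos, against 1.48 and 1.74 (YAP-null) and 1.45 and 2.09 FPKM (WT) in oocytes, a log2 difference of 4.57 ± 0.36 (SE). Slc1a5 (ASCT2), a glutamine carrier, was at 12.4 (YAP-null) and 18.4 FPKM (WT) in embryos, against 0 and 0 (YAP-null) and 0.476 and 0.106 FPKM (WT) in oocytes. Slc7a5 (LAT1), an exchanger of large neutral amino acids, rose by 1.57, while Slc3a2, its heavy-chain partner, was at 69.1 (YAP-null) and 77.3 FPKM (WT) in embryos, against 57.9 and 58.4 (YAP-null) and 57.6 and 48.9 FPKM (WT) in oocytes and did not pass (0.39 ± 0.31, adjusted p = 0.307). Slc7a6 (y+LAT2), which uses the same partner, rose by 2.89. Slc6a8, the creatine transporter, was at 25.9 (YAP-null) and 107 FPKM (WT) in embryos, against 0 and 0.135 (YAP-null) and 0 and 0 FPKM (WT) in oocytes, and the taurine carrier Slc6a6 rose by 1.71, though not without the WT 4-cell library. All 4 oocyte libraries were at 0.135 FPKM or less for Slc6a8. The called neutral amino acid carriers of the SLC38 family all fell, Slc38a9, a lysosomal amino acid sensor, by 1.92, Slc38a8 by 1.82 and Slc38a7 by 1.15. Slc7a8 (LAT2), another partner of Slc3a2, fell by 1.44 and Slc6a15, a carrier of branched-chain amino acids and proline, fell by 1.19. Without the WT 4-cell library Slc38a7, Slc38a8, Slc7a8 and Slc6a15 did not pass, nor did Slc38a7 and Slc7a8 without the YAP-null 4-cell library. Without WT GV library 1 Slc38a7, Slc38a8 and Slc6a15 did not pass, without WT GV library 2 Slc38a8 and Slc6a15, without YAP-null GV library 1 Slc38a7 and without YAP-null GV library 2 Slc38a7 and Slc6a15. The neutral amino acid carriers Slc38a2 and Slc38a3 were under the threshold, with means of 0.440 and 0.289 FPKM, as was the pyruvate carrier Slc16a7, with 0.439 FPKM.

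Carriers of inorganic ions and of acid and base fell in 12 of 24 members and rose in 5, with 7 not called and a median of -1.34. At 1 FPKM or more at both stages 8 of 15 fell and 2 rose, beside 24.6% lower and 23.5% higher among all such genes. Slc12a2 (NKCC1; chromosome 18, 58038332 to 58106475), which brings sodium, potassium and chloride into the cell, was at 97.7 (YAP-null) and 167 FPKM (WT) in embryos, against 4.54 and 4.17 (YAP-null) and 3.19 and 4.15 FPKM (WT) in oocytes, a log2 difference of 4.69 ± 0.36 (SE). Slc24a6, the sodium-calcium exchanger of mitochondria, was at 43.5 (YAP-null) and 85.8 FPKM (WT) in embryos, against 0.256 and 0 (YAP-null) and 0.121 and 0 FPKM (WT) in oocytes. Slc4a11, a member of the bicarbonate transporter family, was at 32.4 (YAP-null) and 64.9 FPKM (WT) in embryos, against 0 and 0.254 (YAP-null) and 0 and 0 FPKM (WT) in oocytes. These 3 were at 32.4 FPKM or more in both embryo libraries and at 4.54 FPKM or less in every oocyte library. Slc12a4 (KCC1), a potassium-chloride exporter, rose by 2.05, while the related Slc12a5 (KCC2) fell by 2.46 and Slc12a7 did not pass. Slc4a2 (AE2), an exchanger of chloride for bicarbonate, fell by 2.65, the bicarbonate carrier Slc4a8 fell by 3.42 and the anion exchanger Slc26a6 fell by 3.39. The sodium-proton exchanger Slc9a3 (NHE3) was at 3.56 (YAP-null) and 0.273 FPKM (WT) in embryos, against 18.7 and 18.8 (YAP-null) and 16.9 and 16.99 FPKM (WT) in oocytes. Slc26a6 did not pass without the WT 4-cell library.

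Metal carriers split within families, 7 higher, 4 lower and 11 not called of 22, and 5 higher and 3 lower of the 18 at 1 FPKM or more at both stages. Slc39a4 (ZIP4), a zinc importer, was at 77.5 (YAP-null) and 159.8 FPKM (WT) in embryos, against 0.159 and 0 (YAP-null) and 0.0499 and 0 FPKM (WT) in oocytes, a log2 difference of 6.74 ± 0.36 (SE). The zinc importers Slc39a1, Slc39a11, Slc39a14 and Slc39a7 rose by 3.79, 3.37, 3.05 and 1.76. Slc39a10 (ZIP10), which with Slc39a6 (ZIP6) supplies zinc to the maturing mouse oocyte, fell by 1.70 and was at 20.7 (YAP-null) and 13.2 FPKM (WT) in embryos, against 59.6 and 62.2 (YAP-null) and 47.5 and 56.3 FPKM (WT) in oocytes. Slc39a6 was lower by value in both embryo libraries, at 29.3 (YAP-null) and 22.6 FPKM (WT) in embryos, against 47.9 and 124 (YAP-null) and 42.05 and 120.2 FPKM (WT) in oocytes. Its oocyte libraries were themselves over 2-fold apart, and it did not pass (-1.49 ± 0.57 (SE), adjusted p = 0.0659), except without WT GV library 1 or without YAP-null GV library 1. Slc30a3 (ZnT3; chromosome 5, 31388479 to 31395900), which loads zinc into vesicles, had the largest fall of the called members, at 12.5 (YAP-null) and 2.36 FPKM (WT) in embryos, against 171 and 222 (YAP-null) and 165 and 222 FPKM (WT) in oocytes. Its log2 difference was -4.85 ± 0.51 (SE) with an adjusted p = 0.000661. Of the copper carriers, Slc31a1 (CTR1) rose by 1.90 and Slc31a2 (CTR2) fell by 3.01. The iron carrier Slc11a2 (DMT1) was at 27.6 (YAP-null) and 47.99 FPKM (WT) in embryos, against 28.4 and 23.9 (YAP-null) and 22.6 and 24.01 FPKM (WT) in oocytes and did not pass. Without the WT 4-cell library Slc31a1 and Slc39a7 did not pass, nor did Slc39a7 without the YAP-null 4-cell library.

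Mitochondrial carriers of the SLC25 family rose in 13 and fell in 9 of 34 members, and 12 did not pass. At 1 FPKM or more at both stages 10 of 30 rose and 8 fell. Slc25a3, which imports the phosphate used for ATP synthesis, was at 164 (YAP-null) and 329 FPKM (WT) in embryos, against 25.2 and 21.7 (YAP-null) and 25.5 and 17.9 FPKM (WT) in oocytes, a log2 difference of 3.32 ± 0.39 (SE). Slc25a44, a carrier of branched-chain amino acids, was at 200.3 (YAP-null) and 176 FPKM (WT) in embryos, against 12.9 and 12.1 (YAP-null) and 11.7 and 13.1 FPKM (WT) in oocytes. Slc25a25, which exchanges ATP-magnesium for phosphate, rose by 4.01, and the iron carrier Slc25a28 (mitoferrin 2) by 2.60. The 3 measured adenine nucleotide translocases, which exchange ADP for ATP, gave different results. Slc25a31 (ANT4), known from mouse germ cells, fell by 1.81 and was at 10.9 (YAP-null) and 8.43 FPKM (WT) in embryos, against 34.1 and 43.9 (YAP-null) and 25.02 and 44.6 FPKM (WT) in oocytes. Slc25a5 (ANT2) was at 70.6 (YAP-null) and 153 FPKM (WT) in embryos, against 165 and 55.1 (YAP-null) and 182 and 67.5 FPKM (WT) in oocytes. Its 2 embryo libraries lay within the range of the oocyte libraries. Slc25a4 (ANT1) was at 23.6 (YAP-null) and 79.1 FPKM (WT) in embryos, against 60.5 and 42.01 (YAP-null) and 62.1 and 51.2 FPKM (WT) in oocytes. Neither passed, with log2 differences of 0.02 ± 0.63 (SE) and -0.29 ± 0.45 (SE). Slc25a48 was at 26.5 (YAP-null) and 3.03 FPKM (WT) in embryos, against 89.97 and 114 (YAP-null) and 89.6 and 121 FPKM (WT) in oocytes, and the ornithine carrier Slc25a15 fell by 2.03. Slc25a35 and the peroxisomal carrier Slc25a17 fell by 3.50 and 2.31. Slc25a38, a glycine carrier needed for heme synthesis, was among the 10 highest in embryos (147 FPKM in YAP-null and 72.5 FPKM in WT embryos) and did not pass, with oocyte libraries between 17.02 and 58.6 FPKM, except without WT GV library 1. Without the WT 4-cell library Slc25a31, Slc25a35 and Slc25a15 did not pass, nor did Slc25a31 without the YAP-null 4-cell library.

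Carriers around the mitochondrial citrate and aspartate routes fell and rose side by side. The citrate carrier Slc25a1 fell by 2.48, the dicarboxylate carrier Slc25a10 rose by 2.95 and the oxoglutarate carrier Slc25a11 rose by 1.22. Of the paired aspartate-glutamate carriers, Slc25a12 (aralar) was at 8.25 (YAP-null) and 18.4 FPKM (WT) in embryos, against 2.14 and 5.12 (YAP-null) and 2.54 and 4.77 FPKM (WT) in oocytes and rose by 1.59. Slc25a13 (citrin) was at 4.77 (YAP-null) and 1.96 FPKM (WT) in embryos, against 17.5 and 11.6 (YAP-null) and 18.3 and 9.94 FPKM (WT) in oocytes and fell by 1.85. Carriers of cofactors and nucleotides also split. Slc25a36, which carries pyrimidine nucleotides, rose by 3.22, and its relative Slc25a33 rose by 1.72. Slc25a42 (coenzyme A) rose by 2.69 and Slc25a51 (NAD) by 1.82, while Slc25a26 (S-adenosylmethionine) fell by 1.37. Lrig1, which overlaps Slc25a26, was at 7.60 (YAP-null) and 4.30 FPKM (WT) in embryos, against 33.8 to 51.2 FPKM in oocytes. Slc25a20, which brings acylcarnitines in for fatty acid oxidation, rose by 2.03. These smaller differences depended on the embryo libraries. Without the WT 4-cell library Slc25a1, Slc25a11, Slc25a12, Slc25a13, Slc25a20, Slc25a26 and Slc25a51 did not pass, and without the YAP-null one Slc25a11, Slc25a12, Slc25a13, Slc25a20, Slc25a26 and Slc25a33 did not. Slc25a11 also lost its call without YAP-null GV library 2 or WT GV library 2, and Slc25a12 without WT GV library 1.

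The remaining classes also moved both ways. Of 23 carriers of vitamins, lipids and organic ions 7 rose and 10 fell, and of the 15 at 1 FPKM or more at both stages 1 rose and 9 fell. Beside Slc19a3, the folate carrier Slc46a1 rose by 2.93 and the fatty acid transporter Slc27a4 by 3.92, while the reduced folate carrier Slc19a1 fell by 1.17, a call lost without any 1 of the libraries other than YAP-null GV library 2. Slc23a2, the vitamin C transporter SVCT2, was at 16.4 (YAP-null) and 11.8 FPKM (WT) in embryos, against 67.4 and 100.3 (YAP-null) and 68.2 and 93.7 FPKM (WT) in oocytes. Slc44a2, a choline transporter-like protein, fell by 1.81. Of 24 carriers of nucleosides and nucleotide sugars 9 rose and 5 fell, and of the 18 at 1 FPKM or more at both stages 5 rose and 4 fell. The nucleoside transporters Slc29a1, Slc29a2 and Slc29a3 (ENT1 to ENT3) rose by 1.15, 2.15 and 1.43. Slc29a1 and Slc29a3 did not pass without the WT 4-cell library or without WT GV library 1, nor did Slc29a1 without the YAP-null 4-cell library or Slc29a3 without WT GV library 2. Of the Golgi nucleotide sugar carriers, Slc35a3 (UDP-N-acetylglucosamine) rose by 1.89, except without the WT 4-cell library, and Slc35a1 (CMP-sialic acid) fell by 2.21. Slc35b3, which carries the sulfate donor PAPS into the Golgi, fell by 3.38. The highest of this class in oocytes, Slc35a4, did not pass (-0.71 ± 0.45 (SE)). The monocarboxylate family member Slc16a13 fell by 3.02. In the phosphate class Slc20a1 (PiT1), a widespread phosphate importer, was at 15.2 (YAP-null) and 14.4 FPKM (WT) in embryos, against 25.1 and 22.9 (YAP-null) and 25.8 and 27.2 FPKM (WT) in oocytes and did not pass. Symbols named after a carrier that encode no carrier were 5 (the scaffolds Slc9a3r1 and Slc9a3r2, the pseudogene Slc22a13b-ps, Slc7a6os and Slc4a1ap), and 0 of 5 passed, although without the YAP-null 4-cell library Slc9a3r1 did.

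Counted by family, the carriers belonged to 44 SLC families, and in 18 of them at least 1 member rose while another fell. The summed level of all members was 3889 (YAP-null) and 4419 FPKM (WT) in embryos, against 3336 and 3904 (YAP-null) and 3624 and 3859.9 FPKM (WT) in oocytes. It was within 1.5-fold among the 6 libraries, although the means of 36 members were at least 10-fold higher, and those of 25 members 10-fold or more lower, at the 4-cell stage. Members averaging under 1 FPKM at 1 stage entered through the other, which favours such folds. How many of all genes differed by as much was not counted. Mitochondrial carriers summed to 1127 (YAP-null) and 1304 FPKM (WT) in embryos, against 749.9 and 662 (YAP-null) and 813 and 692 FPKM (WT) in oocytes. Both embryo libraries lay above all oocyte libraries. Slc25a3, Slc25a44 and Slc25a25 alone gave 164, 200.3 and 100.4 FPKM of the YAP-null and 329, 176 and 86.9 FPKM of the WT embryo sum. Each was at 25.5 FPKM or less in every oocyte library, and 9 of the 34 members fell. Amino acid carriers summed to 387 (YAP-null) and 508 FPKM (WT) in embryos, against 558 and 554 (YAP-null) and 550.5 and 542 FPKM (WT) in oocytes. Both embryo libraries lay below all oocyte libraries. Slc6a9 alone gave 25.9 (YAP-null) and 15.4 FPKM (WT) of the embryo sums, against 132 to 165 FPKM of the oocyte sums, and 7 of the 30 members rose. Whether the embryos lie below without Slc6a9 was not tested. The phosphate class summed to 259 (YAP-null) and 239 FPKM (WT) in embryos, against 32.6 and 33.5 (YAP-null) and 34.8 and 37.5 FPKM (WT) in oocytes, most of it Slc34a2.

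**Figure D3:**
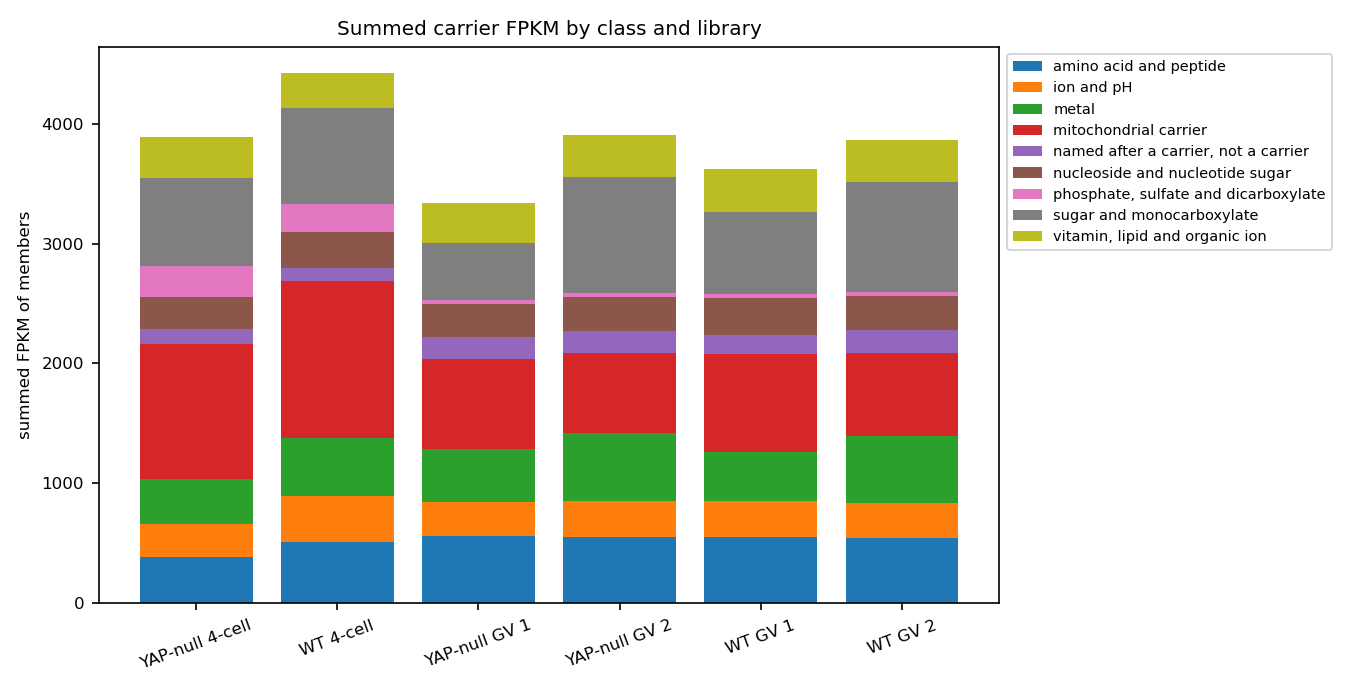
Summed FPKM of the members of each carrier class (stacked colours) in each of the 6 libraries (x axis), with no error bar since each bar is a single library. The mitochondrial class is larger in the 4-cell bars (1127 and 1304 FPKM) than in the GV bars (662 to 813 FPKM), and the phosphate class is visible mainly in the 4-cell bars.

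Genes that work with carriers were followed as a separate list of 34, of which 32 were in the tables and 28 were tested: 9 rose, 8 fell and 11 did not pass. Of all 11451 genes tested 28.2% rose and 27.8% fell. The calls of the listed genes were not followed with a library left out. Mpc1 and Mpc2, the subunits of the mitochondrial pyruvate carrier, rose by 2.33 ± 0.58 and 2.01 ± 0.50 (SE). Atp1b3, a subunit of the sodium pump that powers many carriers, rose by 1.34. Oxsr1 and Wnk3, kinases of the pathway that controls chloride cotransporters such as NKCC1, rose by 2.00 and 2.40. Bsg, the chaperone of the lactate carriers, did not pass (0.50 ± 0.42), and Emb, a related chaperone, fell by 1.89. Among the other genes called, Tomm20, Vdac1, Aqp9 and Atp1b2 rose by 4.67, 2.03, 1.65 and 1.95. Slco3a1, Slco4a1, Mcu, Vdac3, Nedd4l and Atp2a2 fell by 3.48, 2.89, 2.47, 2.25, 1.61 and 1.14.

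The second comparison asked how carriers differ between YAP-null and WT 4-cell embryos. With 1 library per genotype there is no replicate check and no test, and members past a 2-fold difference on the log2(FPKM + 1) scale were counted. Of the 164 members averaging at least 1 FPKM in these 2 libraries, 31 (18.9%) were higher by that measure and 24 (14.6%) lower in the YAP-null library. Among all 10854 genes with such a mean the shares were 17.7% and 9.97%. Those genes did not have to average 1 FPKM over all 6 libraries as the members did, so the sets are unlike at low levels. The balance of the 2 directions depended on scaling: the counts were 26 and 30 with median-ratio scaling, 23 and 27 with quantile normalization and 37 and 14 with equal sums of FPKM in every library, and the median difference of all genes moved from 0.05 as deposited to -0.06, -0.08 and 0.23. Among all genes the share of higher ones was 64.0%, 56.4%, 52.8% and 75.4% under the 4 scalings. The filter mattered too: at a mean of at least 5 FPKM, 14 of 110 members were higher and 20 lower, beside 1083 and 640 of all genes.

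Carriers already present in the oocyte and carriers near absent there lay on different sides. Of 128 members averaging at least 1 FPKM in oocytes, 29 (22.7%) were 2-fold or more higher and 13 (10.2%) lower in YAP-null embryos, beside 19.2% and 7.99% of all genes of that kind. Of 36 members with an oocyte mean under 1 FPKM, 2 (5.56%) were higher and 11 (30.6%) lower, beside 10.9% and 19.1% of all genes of this second kind. The 36 also had to average 1 FPKM over all 6 libraries, which asks for a higher embryo level than the other genes needed. Shares and medians of this second kind therefore come from unlike sets. The median differences were 0.30 and -0.46, beside 0.09 and -0.15 over all genes of the 2 kinds, and the members' medians kept their signs under each scaling (0.14 to 0.47 and -0.64 to -0.28). The counts of the first kind were 24 and 17, 21 and 15, and 34 and 8 with median-ratio, quantile and equal-sum scaling, and 8 and 6 with a pseudocount of 5 FPKM. Those of the second kind were 2 and 13, 2 and 12, 3 and 6, and 0 and 4. All these values come from a single pair of libraries, whose oocyte genes (1307 and 175 FPKM in sum) and blood genes (25.9 and 93.7 FPKM) differed too, and the part of these in the carrier values was not tested.

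Members higher in YAP-null embryos included carriers abundant in oocytes. Slc25a48 was at 26.5 FPKM in YAP-null and 3.03 FPKM in WT embryos, 8.74-fold higher by FPKM, against 89.6 to 121 FPKM in oocytes. Slc38a8, of a family of neutral amino acid carriers, was at 10.4 FPKM in YAP-null and 1.03 FPKM in WT embryos, a log2 difference of 2.49, and Slc45a3 at 228 FPKM in YAP-null and 46.4 FPKM in WT embryos (2.27). Slc30a3 was 5.29-fold higher by FPKM, at 12.5 FPKM in YAP-null and 2.36 FPKM in WT embryos. In all 4 both embryo libraries lay below every oocyte library. The other named members were Slc22a23 (2.07 on the log2 scale), the proline carrier Slc6a7 (1.73), the zinc exporter Slc30a1 (1.78), the citrate carrier Slc25a1 (1.63), Slc7a2 (1.54), the scaffold gene Slc9a3r1 (1.52), the urea transporter Slc14a2 (1.46) and Slc12a9 (1.43). Among ion and pH carriers 9 of 19 were at least 2-fold higher and 2 lower, with Slc9a3 at 3.56 FPKM in YAP-null and 0.273 FPKM in WT embryos and Slc26a9 at 2.71 FPKM in YAP-null and 0.0910 FPKM in WT embryos. With a pseudocount of 5 FPKM the ion carriers gave 0 in each direction.

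Members lower in YAP-null embryos included carriers that rise at the 4-cell stage. Slc6a8, the creatine transporter, was at 25.9 FPKM in YAP-null and 107 FPKM in WT embryos, 4.15-fold lower by FPKM in the YAP-null library. Slc46a1, the proton-coupled folate transporter, was at 2.73 FPKM in YAP-null and 19.3 FPKM in WT embryos, 7.07-fold lower by FPKM. Slc29a3, a nucleoside transporter of lysosomes and mitochondria, was at 2.72 FPKM in YAP-null and 13.2 FPKM in WT embryos (-1.94 on the log2 scale). In all 3 the YAP-null embryos were still above both YAP-null oocyte libraries. Slc25a4 was at 23.6 FPKM in YAP-null and 79.1 FPKM in WT embryos, and here the YAP-null embryos were below both YAP-null oocyte libraries (60.5 and 42.0 FPKM). Further members were Slc35g1 (-1.78), Slc12a4 (-1.61), the zinc transporter Slc30a4 (-1.61), Slc7a6 (-1.52), the purine base transporter Slc43a3 (-1.46), the carnitine-acylcarnitine carrier Slc25a20 (-1.42) and Slc25a41 (-1.37), and the pseudogene Slc22a13b-ps was listed at 0 in YAP-null and at 5.68 FPKM in WT embryos. These differences kept their signs under each scaling and pseudocount tried.

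Many of the largest risers were less than 2-fold apart. Slc34a2 differed by 0.27 on the log2 scale, Slc19a3 by 0.37, Slc16a6 by -0.15 (with a sign that depended on scaling), Slc12a2 by -0.76 and Slc5a6 by -0.87. Slc39a4, at 77.5 FPKM in YAP-null and 159.8 FPKM in WT embryos, and Slc13a2, at 14.2 FPKM in YAP-null and 32.7 FPKM in WT embryos, were just over 2-fold lower in the YAP-null library (-1.04 and -1.15). Of the glucose transporters, Slc2a3 was over 2-fold lower (-1.16) and Slc2a1 over 2-fold higher (1.29).

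**Figure D4:**
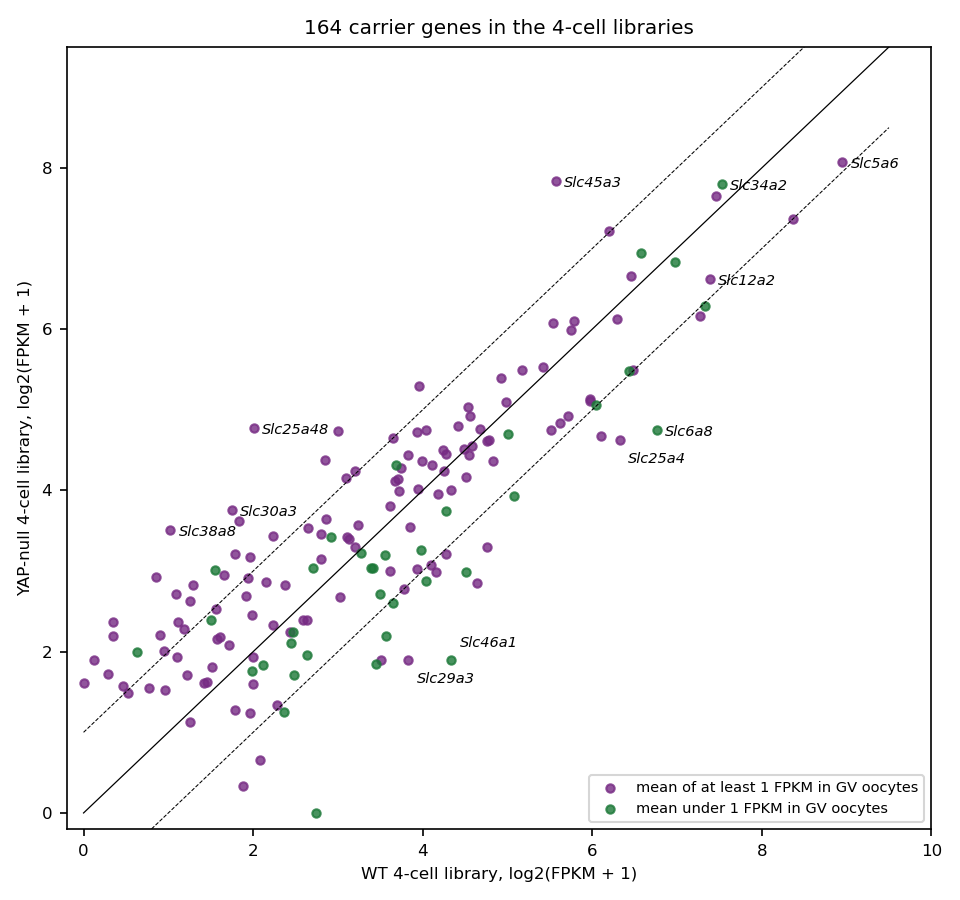
Level of the 164 members in the YAP-null (y axis) and the WT (x axis) 4-cell library, as log2(FPKM + 1), coloured by their mean in GV oocytes; the solid line is equality and the dashed lines are 2-fold. Slc45a3 (228 and 46.4 FPKM) lies above the upper dashed line and Slc6a8 (25.9 and 107 FPKM) below the lower one.

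The third comparison asked whether carriers differ between YAP-null and WT oocytes. No member passed: of the 154 members averaging at least 1 FPKM over the 4 GV libraries 0 had an adjusted p under 0.05 (limma, 2 libraries against 2) and 0 an unadjusted p under 0.05, with a smallest unadjusted p of 0.202. Of all 10462 genes 0% passed and 0.21% (22 genes) had an unadjusted p under 0.05. Yap1 itself, at 10.8 and 10.04 FPKM in YAP-null and 248 and 153.5 FPKM in WT oocytes, did not pass. Same-numbered GV libraries deviated together (r = 0.85), and this fit left that shared spread in its error. With the number as a block in limma, 4 members and 423 genes had an unadjusted p under 0.05, and 0 members passed after adjustment. The other 36 members were too low in oocytes to be tested. Of the 154, 153 were within 1.5-fold between genotypes on the log2(FPKM + 1) scale, with differences from -0.60 to 0.46 and a median of -0.04 (0.00 over all genes). Groups did not overlap for 17 members (11.0%), beside 10.8% of all genes. The one member over 1.5-fold without overlap was Slc25a33, a mitochondrial carrier of pyrimidine nucleotides, at 1.72 and 1.05 FPKM in YAP-null and 3.37 and 1.92 FPKM in WT oocytes (-0.60 ± 0.40, SE), and none was higher to that extent (background 1.19% and 0.669%). With 2 libraries against 2, a p above the threshold does not show that the levels were equal.

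Carrier levels also differed between oocyte libraries 2 and 1 of the same genotype. Of the members averaging at least 1 FPKM, 36 of 152 (23.7%) were at least 2-fold apart between the 2 YAP-null libraries and 28 of 155 (18.1%) between the 2 WT libraries, beside 26.9% and 23.3% of all genes. In 24 members this held in both genotypes, 14 higher and 10 lower in the libraries numbered 2, and in 0 in opposite directions. Over 10462 genes the same-numbered libraries deviated together too (r = 0.85), so the shared direction is not particular to carriers. Slc4a1ap, which encodes a protein named for binding the anion exchanger AE1, was at 76.9 and 77.2 FPKM in the libraries numbered 2 (YAP-null and WT) and at 16.5 and 15.3 FPKM in those numbered 1. Slc39a6 was at 124 and 120.2 FPKM in the libraries numbered 2 and at 47.9 and 42.0 FPKM in those numbered 1. Slc6a7, Slc25a5 and Slc6a20a show the same pattern in one or the other direction. The labels do not say what the number stands for.

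**Figure D5:**
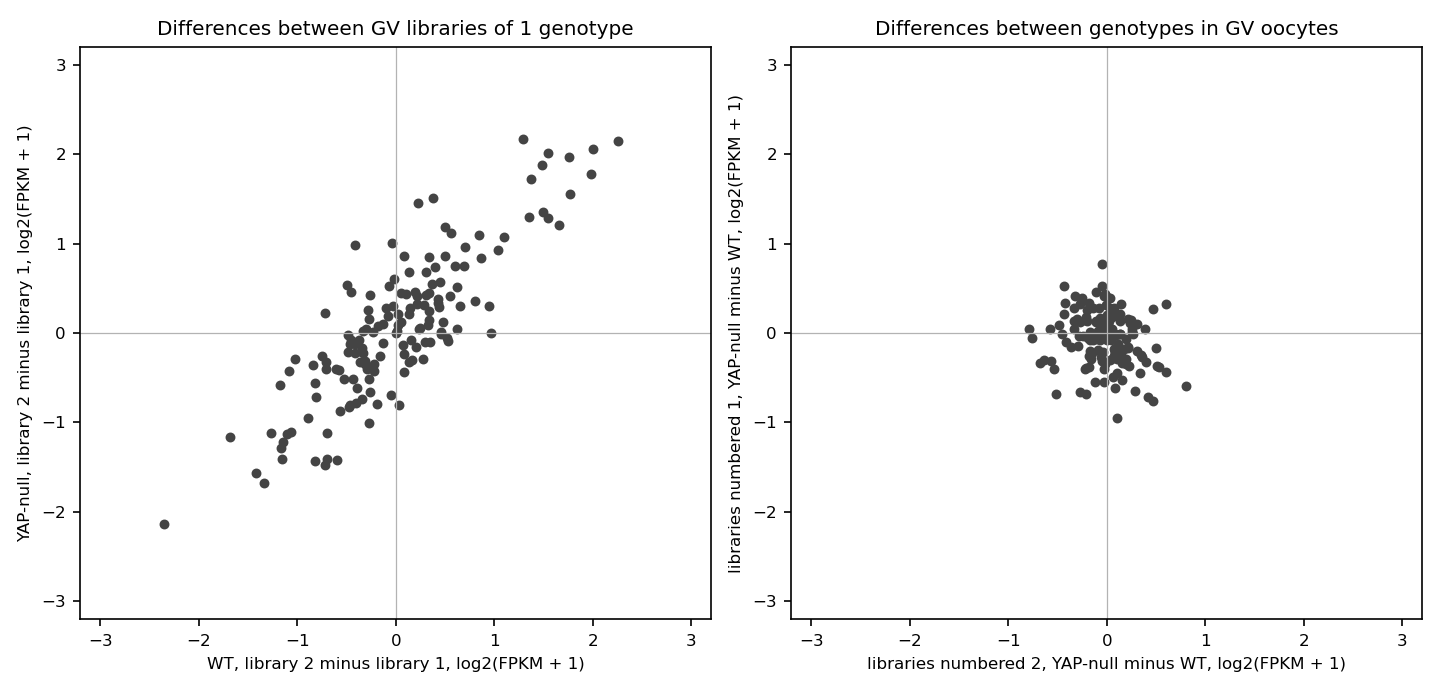
Differences on the log2(FPKM + 1) scale for the 154 members tested in GV oocytes: library 2 minus library 1 within each genotype (left) and YAP-null minus WT within each replicate number (right). Points spread along the diagonal over more than 2 units in each direction on the left and stay within 1 unit of 0 on the right.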

How the data were processed

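RNA of 6 pools of oocytes or embryos was sequenced. The authors deposited one gene table per library with FPKM (fragments scaled to transcript length and library size) in the column layout of Cufflinks, per the file headers. CASAVA 1.8, TopHat and mm9 are named per the submitters' processing notes, and no source used here names the other versions or the strand setting. The tables hold no counts, so depth is unknown and no counting interval can be given. FPKM were summed per symbol (260 symbols at several loci, 0 of them members), 1 symbol whose status read as failed was dropped, and 1 was added to the 0-based locus starts.

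From log2(FPKM + 1), stage was tested with limma 3.58.1 in R 4.3.3 (limma-trend, two-sided, genotype as a term) over 11451 genes that averaged at least 1 FPKM, and genotype in GV oocytes over 10462 genes, each with Benjamini-Hochberg adjustment and a threshold of 0.05. A fold on the log2(FPKM + 1) scale understates the change of low genes. The 4-cell genotypes have 1 library each and were not tested. Both fits were tested on simulated data. Carriers were classed by family number. The members, the lists and the rule for named genes (listed roles, the 10 highest per stage, the 12 largest called stage differences and the 12 largest 4-cell genotype differences per direction among members with at least 5 FPKM in the higher library, and GV differences over 1.5-fold without overlap) were chosen with earlier results of these data known, and some further members were named after their values were seen. Alternatives were another pseudocount, filter, scaling, covariate or fold, and each library left out. A few single-gene results are not reported here.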

Additional observations from a re-analysis of the deposited data

Results flagged for a closer look

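In 5 flagged members every library moved one way between stages in YAP-null and the opposite way in WT samples. There was 1 embryo library per genotype, and other members, such as Slc44a1 and Slc25a30, did the same. The log2 difference 4-cell minus GV in YAP-null minus that in WT samples was -2.66 for the pseudogene Slc22a13b-ps, -1.55 for Slc25a4, which encodes the translocase ANT1, and -1.43 for Slc43a3, a purine base transporter. It was 2.00 for Slc30a1, which encodes the zinc exporter ZnT1, and 0.86 for the sulfate transporter Slc26a2. These differences between genotypes were not tested.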

How the results depend on the processing

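Leaving out 1 library at a time gave 39 to 60 members higher and 32 to 61 lower by stage, and 1650 to 3182 higher and 1315 to 3171 lower among all genes. The low ends were without the WT 4-cell library. Without the YAP-null 4-cell library 2115 genes were higher and 2100 lower, and with a mean of at least 5 FPKM 36 members were higher. In GV oocytes leaving out 1 library gave 1 to 5 genes higher and 1 to 2 lower, and 0 members in either direction. The same-numbered GV libraries deviated together (r = 0.85 across 10462 genes, which are not independent), and a fit with the replicate number as a block called 1 gene higher, 1 lower and 0 members, with an unadjusted p under 0.05 for 4 members and 423 genes (0 and 22 without the block). Past 2-fold between the 4-cell libraries 8 members were higher and 10 lower with a pseudocount of 5 FPKM, 14 were higher at a mean of at least 5 FPKM, 14 were lower with equal sums, and 6 and 3 were higher and lower past 4-fold. The log2 ratio of summed levels, 4-cell over GV, moved to -0.23 with median-ratio scaling and -0.40 with equal sums for amino acid carriers (-0.30 as deposited). For ion carriers it moved to 0.24 and 0.051 (0.16), and for nucleoside carriers to 0.063 and -0.095 (0.00). With equal sums it was 2.76 for phosphate (2.85) and -0.23 for vitamin carriers (-0.14). The cause was not tested. No value reversed after passing its test. Of the stage results of 126 single members under these settings, 1616 kept their side of the threshold, 102 lost and 12 gained it. Unknown depth limits low members most.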
